A study of Mus musculus with 8 samples.

Results

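The genes described here are 10 markers of airway epithelial identity and of basal cells, chosen by name from the 23478 gene symbols in each of the deposited count tables. They are Nkx2-1, Sox2, Trp63, Krt5, Krt8, Krt18, Epcam, Cdh1, Foxa1 and Foxa2, and all 10 were listed in both tables. RNA sequencing was done on E13.5 mouse embryos in 8 libraries of 4 groups. Whole tracheas came from 1 Wls flox/flox, ShhCre+ library and from 2 Wls flox/flox libraries without Cre. Sorted tracheal cells, called chondroblasts in the labels, came from 2 Bmp4flox/flox, Foxg1Cre+, γSMAeGFP libraries and from 3 Bmp4flox/flox, γSMAeGFP libraries without Cre. All 4 groups carried a floxed gene, and all sorted groups also carried the smooth muscle GFP reporter. Shh-Cre acts where Shh is expressed, which in the trachea is the epithelium, so the deletion was targeted to the cells these genes mark, while Foxg1Cre is active in several embryonic tissues. The sort discarded cells stained for EPCAM, the product of one of the 10 genes, and cells with reporter GFP. The labels do not say how many embryos went into a library or whether libraries of a group were separate embryos (p-values then describe spread between libraries alone, and that spread could be technical). The series text says that new Wls data were joined to data generated earlier, without saying which libraries those are, and the part of preparation time in the Wls values was not tested.

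The epithelium of the developing trachea is set apart from the neighbouring oesophagus by the homeobox factor Nkx2-1, and the forkhead factors Foxa1 and Foxa2 act in foregut endoderm and its airway derivatives. Sox2 marks the proximal airway and is needed for its basal cells. Basal cells are the stem cells of the tracheal epithelium and are known by the transcription factor p63, encoded by Trp63, and by keratin 5, encoded by Krt5. Krt8 and Krt18 encode the keratin pair of simple epithelia, Cdh1 encodes E-cadherin and Epcam an epithelial adhesion molecule.

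Promoters in the RefSeq table of build GRCm38.p6 were matched for 8 of the 10 genes, with Trp63 and Cdh1 not matched. Each runs 5′ to 3′ over 300 bases, from 250 before the annotated start to 50 after it, and CG pairs are in capitals. Krt5 and Sox2 are shown because they differed in opposite directions in the Wls mutant, and Krt8 and Krt18 because the RNAs of this keratin pair stood in another ratio in the sorted controls than in tracheas.
Krt5, chr15:101712856-101713155, minus strand: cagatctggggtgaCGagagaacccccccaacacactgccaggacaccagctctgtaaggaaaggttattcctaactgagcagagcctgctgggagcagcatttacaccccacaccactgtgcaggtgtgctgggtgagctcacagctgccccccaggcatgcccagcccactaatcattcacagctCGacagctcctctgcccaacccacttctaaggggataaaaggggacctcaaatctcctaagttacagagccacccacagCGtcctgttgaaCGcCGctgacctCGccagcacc
Sox2, chr3:34649745-34650044, plus strand: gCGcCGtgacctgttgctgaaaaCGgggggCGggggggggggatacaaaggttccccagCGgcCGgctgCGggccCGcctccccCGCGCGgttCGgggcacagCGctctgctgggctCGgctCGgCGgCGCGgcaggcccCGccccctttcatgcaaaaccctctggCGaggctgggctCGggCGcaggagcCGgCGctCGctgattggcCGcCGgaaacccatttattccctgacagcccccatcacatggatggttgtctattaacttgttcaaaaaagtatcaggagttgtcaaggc
Krt8, chr15:102004293-102004592, minus strand: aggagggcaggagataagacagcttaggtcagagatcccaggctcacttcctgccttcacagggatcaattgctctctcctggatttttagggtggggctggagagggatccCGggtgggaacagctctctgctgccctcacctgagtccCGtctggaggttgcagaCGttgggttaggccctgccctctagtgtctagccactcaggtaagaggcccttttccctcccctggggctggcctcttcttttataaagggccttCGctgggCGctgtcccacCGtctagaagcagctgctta
Krt18, chr15:102027966-102028265, plus strand: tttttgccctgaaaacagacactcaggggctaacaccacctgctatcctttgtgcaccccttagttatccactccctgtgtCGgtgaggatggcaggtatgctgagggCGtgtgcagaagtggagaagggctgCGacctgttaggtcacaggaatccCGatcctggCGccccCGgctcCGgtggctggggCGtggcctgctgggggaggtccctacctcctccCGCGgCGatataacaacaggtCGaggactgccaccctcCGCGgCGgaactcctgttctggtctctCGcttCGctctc
The Sox2 promoter held 27 CG pairs and the Krt5 promoter 6, against a median of 7 over 32851 promoters of the same length. Krt18 had 17 and Krt8 had 6. The core letters of the TCF/LEF motif of Wnt signalling, CTTTGAT or CTTTGTT on either strand, were found in 9.33% of all promoters; CTTTGTT is also a core of SOX motifs. None of the 4 promoters printed held them. The Foxa1 promoter and the third Foxa2 start held 1 match each. A match is a description of the letters and not a binding site.

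The Wls mutant library totalled 24596836 counts, against 27237573 and 31399982 for the control tracheas. Sorted libraries totalled 12964287 and 15462780 counts in the Bmp4 mutants, against 48876948 to 55492747 in their controls. Levels are given as CPM, a gene's share of the library total scaled by 1e6. A count of 0 allows up to 3 counts, which is 0.0955 to 0.122 CPM in the tracheas and 0.0541 to 0.231 CPM in the sorted cells, for counting error only. The targeted gene Wls stood at 65.3 CPM in the mutant trachea, against 151 and 149 CPM in the controls (edgeR log2 fold change -1.19 ± 0.18 SE, adjusted p = 1.8e-07). In both Bmp4 mutant libraries genes silent in all 3 sorted controls carried counts, as set out with the sorted cells below.

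All 10 genes were expressed in whole tracheas. Per kilobase of exon, Epcam led in the Wls mutant with 120 CPM, followed by Krt8 with 72.2, Sox2 with 63.8 and Krt18 with 59.0. Foxa2, Foxa1, Nkx2-1 and Cdh1 lay between 30.9 and 36.3 CPM per kilobase there, and Krt5 and Trp63 were lowest with 2.98 and 1.18. In the control tracheas Epcam stood at 67.6 and 55.5 CPM per kilobase and Krt8 at 62.5 and 54.9, ranges that overlap. Krt18 followed with 42.6 and 37.9 CPM per kilobase, and Sox2 with 38 and 27.0 CPM per kilobase. Cdh1 had 29.3 and 23.7 CPM per kilobase, Foxa1 24.4 and 20.4, Nkx2-1 23.0 and 20.4, and Foxa2 22.2 and 17.7, and these neighbours in the order overlapped as well. The basal cell genes were the lowest by a clear gap, Krt5 with 5.21 and 10.1 CPM per kilobase and Trp63 with 1.84 and 1.57. Trp63 has distinct start sites for its long and short forms, and counts per gene do not tell them apart.

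The Wls comparison asks how the epithelium's own identity genes stood when the gene of the Wnt secretion protein Wls was targeted there. Sorted controls also held Wls RNA, at 186, 126 and 156 CPM, so whole tracheas do not show how much the epithelium lost. Most epithelial identity genes were higher in the mutant trachea, while the basal keratin gene Krt5 was lower and Trp63 did not pass. Of the 10 genes 6 passed the edgeR test as higher (Nkx2-1, Sox2, Krt18, Epcam, Foxa1 and Foxa2) and 1 as lower (Krt5). Over all 15815 genes tested 1.90% were called higher and 2.42% lower, 4.31% in all, and the median log2 fold change was -0.01, against 0.56 over the 10 genes. The mutant library lay above both controls for 8 of the 10 genes and below both for Trp63 and Krt5, where 35.3% and 38.9% of all genes tested did so. With 1 mutant library the test had 1 residual degree of freedom and assumed that the mutant varies like the controls.

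**Figure D1:**
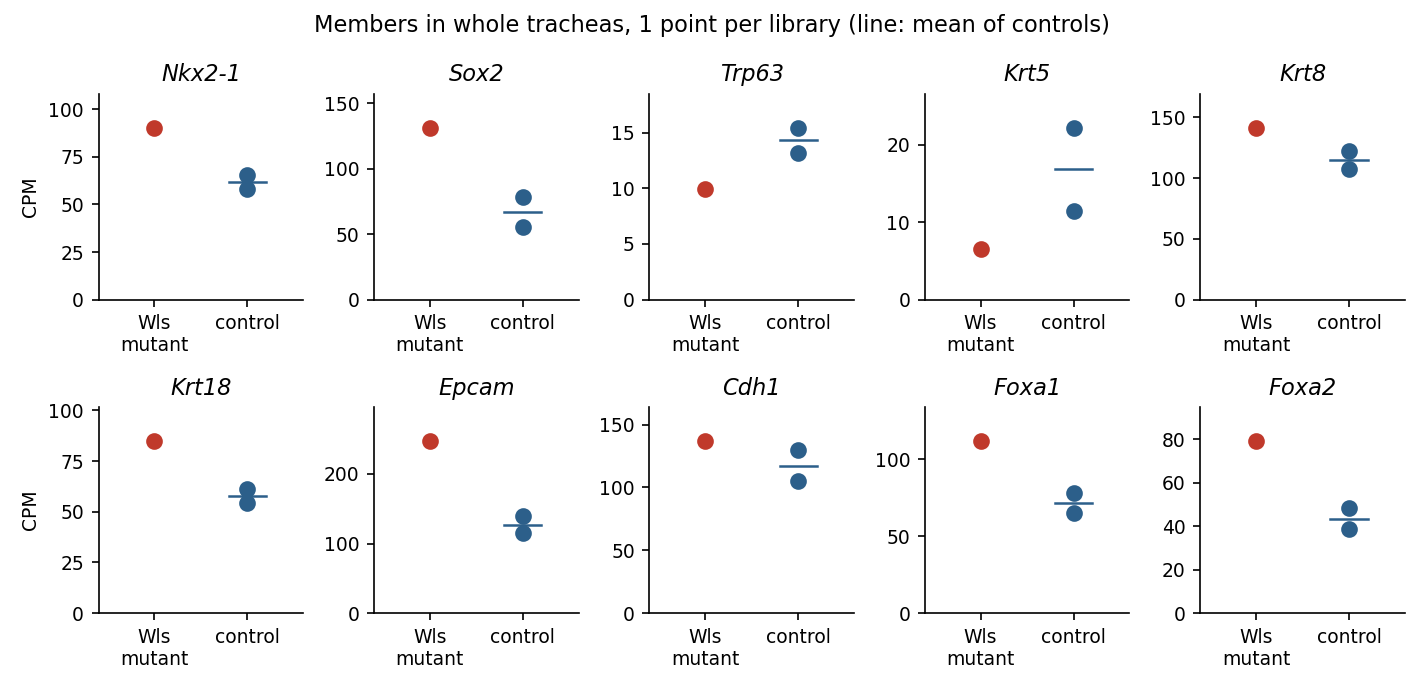
CPM of the 10 genes in whole tracheas (y axis, CPM from 0) by group (x axis), 1 point per library, with a line at the mean of the 2 controls. The Wls mutant lies above both controls for 8 genes and below both for Trp63 and Krt5.

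Among the factors of airway identity, Sox2 (mm10, chromosome 3, 34650405 to 34652461) reached 131 CPM in the mutant, against 78.2 and 55.6 CPM in the controls. Its log2 fold change was 0.98 ± 0.17 (SE, adjusted p = 3.8e-06), and the mutant lay further from the nearer control than the controls lay from each other. Sox2 lies within the span of the noncoding gene Sox2ot on the same strand, with no shared exon. Foxa2 (chromosome 2, 148042877 to 148046969) stood at 79.0 CPM in the mutant, against 48.4 and 38.6 CPM in the controls (log2 fold change 0.88 ± 0.17, adjusted p = 9.8e-05). Its paralogue Foxa1 (chromosome 12, 57540628 to 57546916) stood at 112 CPM, against 77.8 and 65.1 CPM (0.66 ± 0.17, adjusted p = 0.0064). Nkx2-1 (chromosome 12, 56531958 to 56536908), the lung and tracheal lineage factor, stood at 90.3 CPM, against 65.3 and 57.9 CPM (0.57 ± 0.17, adjusted p = 0.030). All 4 factors were thus higher in the mutant than in either control, Sox2 and Foxa2 by more than Nkx2-1 and Foxa1, though differences between the 4 changes were not tested.

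Among the adhesion and keratin genes, Epcam (chromosome 17, 87635979 to 87651129) was at 247 CPM in the mutant, against 139 and 114 CPM in the controls (0.97 ± 0.17, adjusted p = 9.1e-06). E-cadherin did not pass: Cdh1 (chromosome 8, 106603351 to 106670246) had 137 CPM in the mutant and 130 and 105 CPM in the controls (0.23 ± 0.17, adjusted p = 0.60; 0.44 without control 1 and 0.06 without control 2). Epcam therefore stood at 1.81 times Cdh1 in CPM in the mutant, against 1.07 and 1.09 times in the controls. Krt18 (chromosome 15, 102028180 to 102032027) had 84.7 CPM in the mutant, against 61.3 and 54.4 CPM (0.57 ± 0.17, adjusted p = 0.031). Its partner Krt8 (chromosome 15, 101996698 to 102004482) had 141 CPM, against 122 and 107 CPM, and did not pass (0.31 ± 0.17, adjusted p = 0.41). Krt8 shares exon sequence with an antisense gene, Gm36026, and has a processed pseudogene, Krt8-ps, so its counts are less certain.

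Both basal cell genes lay below both controls, and 1 of them passed. Krt5 (chromosome 15, 101707070 to 101712898) fell to 6.55 CPM in the mutant, against 11.4 and 22.2 CPM in the controls (log2 fold change -1.34 ± 0.25, adjusted p = 3.2e-05). The controls differed from each other by more than the mutant differed from the lower one, and the log2 fold change was -1.69 without control 1 and -0.81 without control 2. Krt5 shares exon sequence with an antisense miRNA gene, Gm44323. Trp63 (chromosome 16, 25683763 to 25892102) had 9.92 CPM in the mutant, against 15.4 and 13.2 CPM in the controls, a difference that missed the threshold (-0.51 ± 0.24, adjusted p = 0.28). The number of the 10 genes past the test was 4 with DESeq2 (Sox2, Krt5, Epcam and Foxa2) and 5 with limma-voom, which added Foxa1. Over all genes 256 of 19068 passed with DESeq2 and 537 of 15815 with limma-voom. Nkx2-1 and Krt18 had adjusted p = 0.24 and 0.25 with DESeq2. By a rule of size without a test, which asked for a log2 difference of at least 1 and a mutant further from both controls than they are from each other, 118 of 10897 genes were called (1.08%), 0.367% higher and 0.716% lower. Of the 10 genes Sox2 met it, at 1.01, and Epcam stood just under it, at 0.98.

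In bulk tissue a larger share of epithelial cells and more RNA per epithelial cell cannot be told apart, so the other 6 genes were also set against the summed CPM of Epcam, Cdh1, Krt8 and Krt18 of the same library. That sum was 610 CPM in the mutant, against 453 and 381 CPM in the controls. On this scale Nkx2-1 was level, at 14.8% in the mutant and 14.4% and 15.2% in the controls. Its log2 fold change of 0.57 lay between those of Cdh1 (0.23) and Epcam (0.97), so such shares depend on which genes form the sum. Trp63 stood at 1.63% of the sum in the mutant, against 3.40% and 3.46% in the controls, which lay close to each other. Krt5 stood at 1.07%, against 2.53% and 5.82%. Sox2 had 21.5%, against 17.3% and 14.6%, and Foxa2 13.0%, against 10.7% and 10.1%. Foxa1 had 18.3%, against 17.2% and 17.1%. Relative to the epithelial sum, then, both basal cell genes were below both controls, Sox2, Foxa1 and Foxa2 were above both, and Nkx2-1 lay between them. With 1 mutant library no test of these shares was made.

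**Figure D2:**
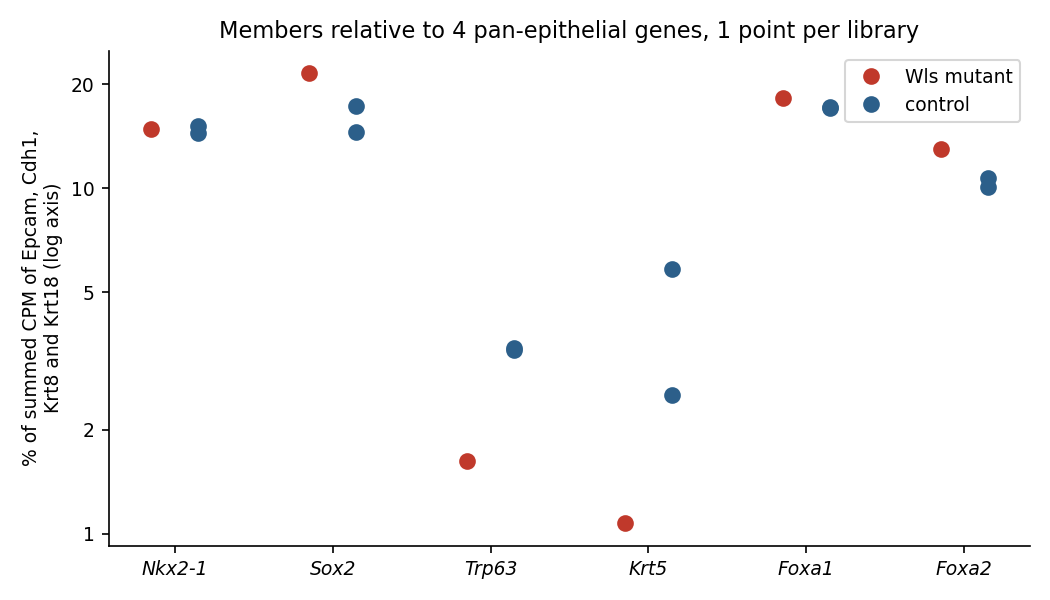
The 6 genes outside the denominator as a percentage of the summed CPM of Epcam, Cdh1, Krt8 and Krt18 in the same library (y axis, log scale), 1 point per whole-trachea library. Trp63 and Krt5 are lower in the Wls mutant than in both controls, at 1.63% and 1.07%, while Nkx2-1 lies between its controls.

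Other epithelial genes were taken from 4 lists, of junction proteins, regulators, membrane proteins with proteases, and further keratins. Their counts stand beside 1.90% of all genes tested called higher and 2.42% lower. Of 14 junction and adhesion genes 4 rose and 0 fell, with a median log2 fold change of 0.54: the tight junction claudins Cldn4, Cldn6 and Cldn7 and the cadherin Cdh3. Cldn6 stood at 181 CPM in the mutant, against 114 and 96.0 CPM in the controls (0.79 ± 0.17, adjusted p = 4.4e-04). Perp, a desmosomal target of p63, had 7.28 CPM, against 11.3 and 11.5 CPM (-0.63 ± 0.26, adjusted p = 0.19). Of 12 epithelial regulators 2 rose, the splicing regulators Esrp1 at 0.64 ± 0.17 (adjusted p = 0.0095) and Rbm47 at 1.18 ± 0.28 (adjusted p = 0.0020), and 0 fell. The zinc finger factor Klf5 had 10.2 CPM in the mutant, against 17.0 and 15.7 CPM (-0.66 ± 0.23, adjusted p = 0.082). Of 10 tested membrane proteins and proteases 3 rose, the protease Prss8, the protease inhibitor Spint2 and the clathrin adaptor Ap1m2, at 0.66 to 0.77, and 0 fell. With DESeq2 Cldn6 was the 1 gene of these 4 lists that passed (adjusted p = 0.012), where 256 of 19068 genes did. With limma-voom 9 rose and 1 fell, the keratin Krt6a, where 537 of 15815 genes passed.

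The further keratins and basal cell genes had negative medians, and these lists share 3 genes (Krt14, Krt15 and Krt17). Of 7 tested keratins 2 fell and 0 rose, with a median of -0.47, beside 2.42% of all genes called lower and 1.90% higher. Krt14, the basal partner of Krt5, had 4.27 CPM in the mutant, against 5.51 and 11.5 CPM in the controls (-0.98 ± 0.31, adjusted p = 0.046). Krt19 had 20.4 CPM, against 33.8 and 30.2 CPM (-0.63 ± 0.19, adjusted p = 0.035), and Krt7 was near level at 72.2 CPM, against 72.5 and 60.6 CPM (0.13, adjusted p = 0.82). Of 14 basal cell genes beside Trp63 and Krt5, 12 had a negative fold change with a median of -0.35, but Krt14, which is also 1 of the 2 keratins that fell, alone passed. The list is not specific to epithelium in these samples, since its summed CPM in the sorted controls was 61.5% of that in control tracheas, against 4.55% for the 10 genes. Snai2, a gene of that list, had 97.1, 101 and 129 CPM in the sorted controls, against 24.3 and 28.2 CPM in control tracheas. Itgb4, the integrin of hemidesmosomes, was at -0.53 ± 0.27 (adjusted p = 0.36). Without control 2, when fewer genes passed the filter, the median was -0.14 over 13 basal cell genes and -0.15 over 6 keratins. The parts of that library and of the change of genes in this shift were not tested. With DESeq2 0 keratins and 0 basal cell genes passed, and with limma-voom 1 keratin and 0 basal cell genes did. That keratin was Krt6a (adjusted p = 0.015 by limma-voom), at 0 CPM in the mutant, against 0.257 and 0.637 CPM in the controls. Krt19 and Krt14 had adjusted p = 0.094 and 0.15 by limma-voom, so neither passed with either tool.

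**Figure D3:**
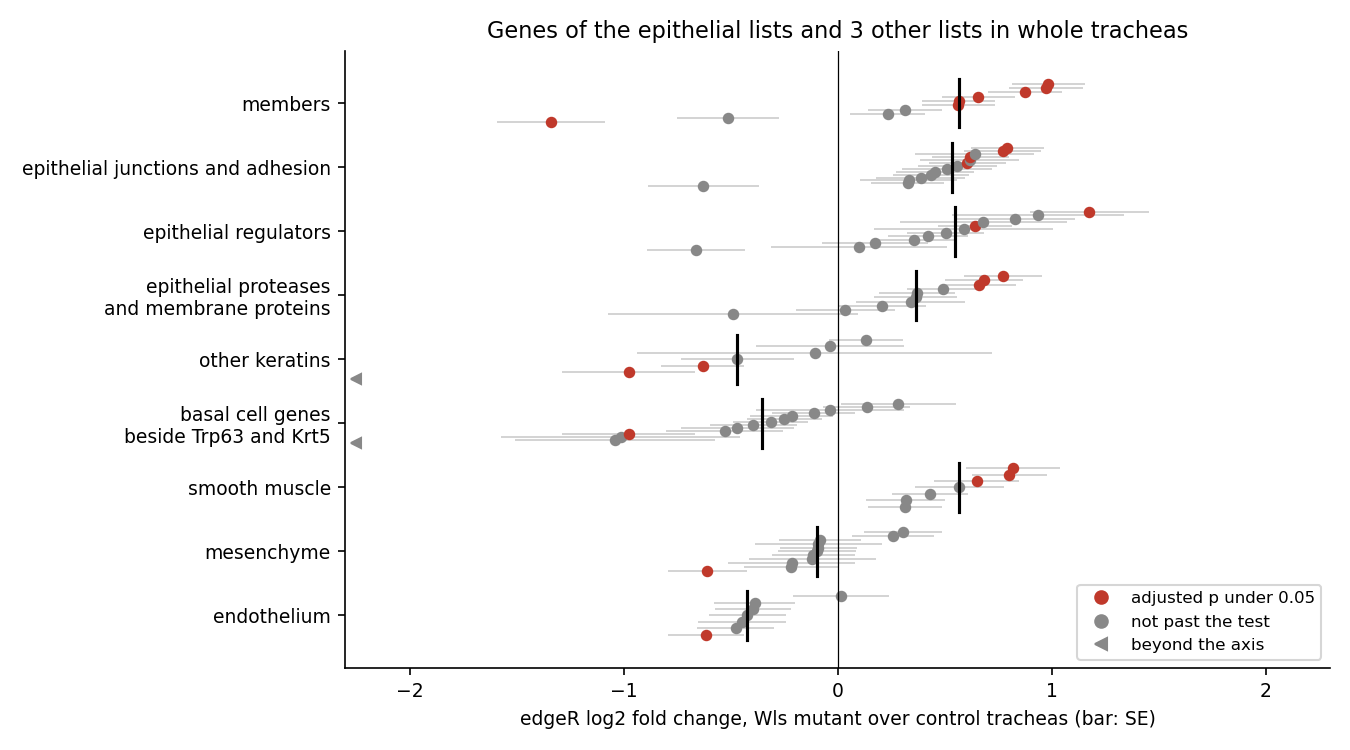
edgeR log2 fold change of Wls mutant over control tracheas (x axis, bars show SE) for each tested gene of 9 lists (y axis), with list medians as black lines, genes past the test in red, and arrowheads for values beyond the axis; the list named members holds the 10 genes. Medians lie at 0.56 for the 10 genes, 0.54 for junction genes and 0.55 for regulators, and at -0.47 for further keratins and -0.35 for basal cell genes.

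Of 12 tested genes of secretory, ciliated and neuroendocrine cells 1 rose and 0 fell, beside 1.90% of all genes called higher and 2.42% lower. Insm1, a neuroendocrine factor, stood at 7.24 CPM in the mutant, against 3.93 and 3.15 CPM in the controls (1.05 ± 0.32, adjusted p = 0.036 by edgeR and 0.52 by DESeq2). Of 12 signalling genes of the airway 2 rose and 3 fell, Wls among them. Wnt4 had 53.8 CPM in the mutant, against 27.1 and 25.4 CPM (1.05 ± 0.18, adjusted p = 2.2e-06), and Wnt7b had 215 CPM, against 139 and 126 CPM (0.71 ± 0.17, adjusted p = 0.0027). Shh, whose locus drives the Cre, had 24.3 CPM, against 19.7 and 19.8 CPM, and was not called (0.31 ± 0.20, adjusted p = 0.50). Wnt5a and Bmp4, which are not limited to epithelium, fell by 0.88 and 0.69 on the log2 scale, Bmp4 with adjusted p = 0.010 by edgeR and 0.10 by DESeq2.

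Some markers of other cells also differed in the mutant trachea, beside 1.90% of all genes called higher and 2.42% lower. Of 7 smooth muscle genes 3 rose (Acta2, Myocd and Lmod1), and the list summed to 2634 CPM in the mutant, against 1847 and 1612 CPM. Of 7 endothelial genes 1 fell (Cdh5), and the list summed to 287 CPM, against 363 and 434 CPM. Of 11 mesenchymal genes 1 fell (Pdgfrb), and the sum of 11200 CPM lay between the controls at 13870 and 10990 CPM. Of 5 leukocyte and 5 erythroid genes tested 0 passed by edgeR (1 at an unadjusted p under 0.05), 0 by DESeq2 and 1 by limma-voom. With DESeq2 Acta2, Myocd, Pax8 and Sox2 were the genes of the other-cell lists named here that still passed. Nkx2-1 is also expressed outside the trachea, in thyroid and lung. Of 5 tested thyroid genes 2 rose and 1 fell: Pax8 had 4.19 CPM in the mutant, against 0.330 and 0.0637 CPM, Hhex 8.74 CPM, against 3.60 and 5.03 CPM, and thyroglobulin, Tg, 0.569 CPM, against 2.06 and 2.10 CPM. These 3 were named after their values were seen. Of 6 tested genes listed for distal lung epithelium Etv5 and Cpm fell, but neither was confined to epithelium here: Etv5 had 107, 68.7 and 79.8 CPM in the sorted controls, against 31.5 and 35.4 CPM in control tracheas, and Cpm 125, 105 and 118 CPM, against 29.5 and 26.4 CPM. The surfactant gene Sftpc did not pass (adjusted p = 0.61) and Sftpa1 was at 0 in all 3 tracheas. Of 6 tested oesophageal and foregut genes Sox2 and Nkx6-1 rose and 0 fell, and Krt13, a keratin of stratified oesophagus, was at 0 in all 3 tracheas. The 1 thymus or parathyroid gene tested did not pass. The part of these other cells in the epithelial values was not tested.

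The sorted cells serve as a check of epithelium removal. Kits differ between sorted cells and tracheas, so their values stand side by side without a test. The sorted Bmp4 controls held 1.12% of the level in control tracheas as the median over the 10 genes, against 107% over 11773 genes of at least 5 CPM in control tracheas. At least 10-fold lower levels without overlap between libraries were found for 9 of the 10 genes, against 2.47% of those 11773 genes. Epcam, the antigen of the sort, had 2.02, 0.307 and 1.35 CPM in the sorted controls, against 139 and 114 CPM in control tracheas, or 0.965% of their mean. Cdh1 had 0.396, 0.123 and 2.72 CPM, against 130 and 105 CPM, and Foxa1 and Foxa2 were at or under 0.161 CPM in all 3 sorted controls. Krt5 had a count of 0 in all 3 sorted controls, under a limit of 0.0541 to 0.0614 CPM, against 11.4 and 22.2 CPM in control tracheas.

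The levels left were uneven across the 10 genes. Krt18 kept 26.4% of its tracheal level, with 20.0, 15.8 and 9.94 CPM in the sorted controls, against 61.3 and 54.4 CPM in control tracheas. Its partner Krt8 kept 5.88%, with 3.26, 10.3 and 6.74 CPM in the sorted controls, against 122 and 107 CPM. Counts of Krt18 were 6.13, 1.54 and 1.48 times those of Krt8 in sorted controls, against 0.501 and 0.506 times in control tracheas. Nkx2-1 kept 9.54%, with 9.68, 5.77 and 2.19 CPM in the sorted controls, against 65.3 and 57.9 CPM. It stood at 4.79, 18.8 and 1.63 times Epcam in the sorted controls, against 0.468 and 0.506 times in control tracheas, so the ratio between these genes was not that of whole tracheas. The order of the sorted controls also differed between genes, with control 1 highest for Nkx2-1 and Krt18, control 2 highest for Krt8 and control 3 highest for Cdh1.

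**Figure D4:**
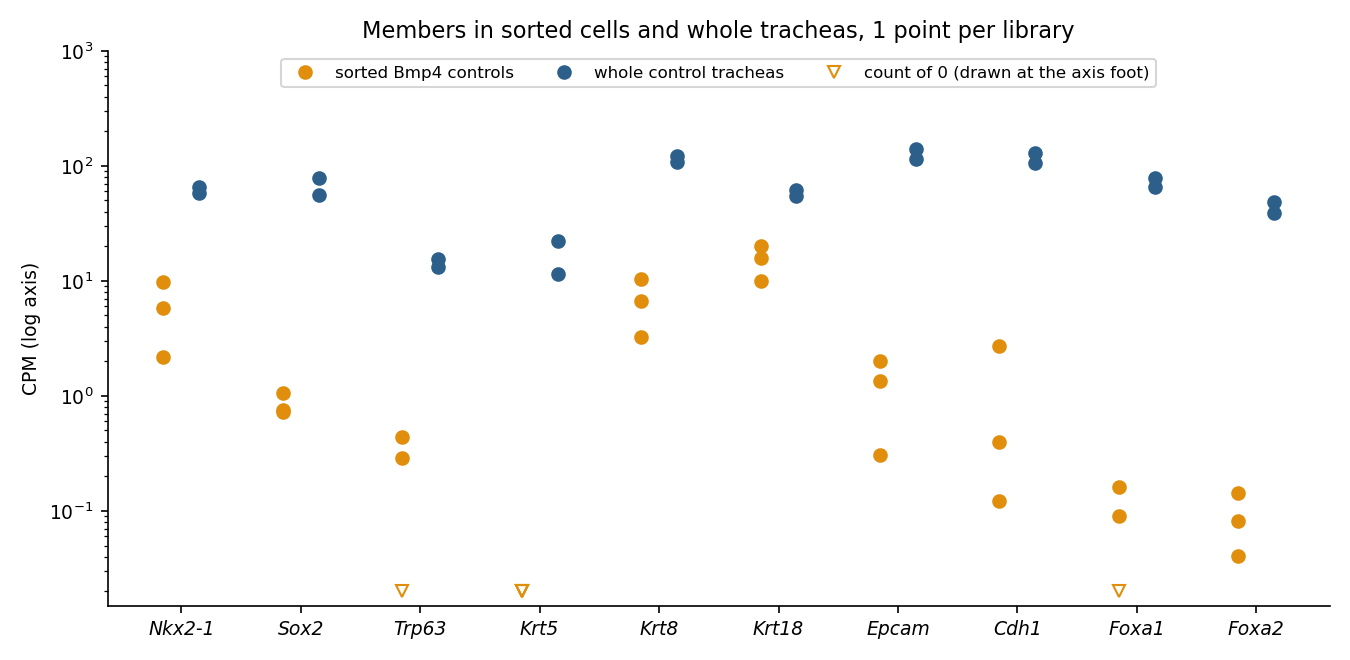
CPM of the 10 genes (y axis, log scale) in 3 sorted Bmp4 control libraries and 2 whole control tracheas, 1 point per library, with counts of 0 as open triangles at the axis foot. Every gene is lower in the sorted cells than in both tracheas, least so for Krt18.

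Bmp4 mutant cells were then set against their sorted controls for the epithelial RNA left after the sort. Bmp4 itself stood at 25.5 and 36.7 CPM in the mutants, against 114, 92.0 and 117 CPM in the controls (log2 fold change -2.03 ± 0.20, adjusted p = 0.0033). Of the 10 genes 9 were tested, 5 were called higher in the mutants (Trp63, Epcam, Cdh1, Foxa1 and Foxa2) and 0 lower. Over all 21665 genes tested 39.3% were called higher and 15.6% lower, so such calls were common, and the median log2 fold change over all genes was 0.53. Foxa1 and Foxa2 passed the filter on low counts only through the mutants, as did 5707 of the 21665 genes, 5441 of them called higher. Both mutants lay above all 3 controls for 8 of the 10 genes, as 53.3% of all genes tested did. With 1 control left out 4 of the 9 tested passed each time, where 10320 of 21418, 9933 of 21498 and 10478 of 21405 genes did. Trp63 and Cdh1 were among the 4 each time. Foxa2 was too, but it lay under the rate of silent genes, given below, in both mutants. Leaving out a mutant leaves 1 library in that group, as in the Wls comparison. Counts of genes passing over all leave-outs are given at the end as ranges, with their low ends in the fit without mutant 1. For fits without a mutant only log2 fold changes are given here. They were 4.57 for Trp63, 2.36 for Epcam, 3.65 for Cdh1, 2.29 for Foxa1 and 3.65 for Foxa2 without mutant 1. Without mutant 2 they were 5.91, 2.05, 4.36, 4.14 and 3.57 in that order. Nkx2-1 was at -1.32 without mutant 1 and at -5.40 without mutant 2. With DESeq2 or limma-voom 4 of the 10 genes passed, without Foxa1, where 12655 of 22861 and 10736 of 21665 genes did.

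Cdh1 had 24.4 and 16.6 CPM in the mutants, against 0.396, 0.123 and 2.72 CPM in the controls (4.06 ± 1.08, adjusted p = 0.016). Trp63 had 16.3 and 7.11 CPM in the mutants, against 0, 0.286 and 0.443 CPM in the controls (5.39 ± 1.19, adjusted p = 0.0080). Epcam had 5.71 and 7.76 CPM, against 2.02, 0.307 and 1.35 CPM (2.22 ± 0.79, adjusted p = 0.046). For these 3 genes the mutants lay above every control. Krt8 had 20.7 and 13.52 CPM, against 3.26, 10.3 and 6.74 CPM (1.13 ± 0.51, adjusted p = 0.096), and Krt18 overlapped, with 21.7 and 13.6 CPM, against 20.0, 15.8 and 9.94 CPM (-0.01 ± 0.39, adjusted p = 0.98). Its log2 fold change was 0.25 with scaling from genes above the background, which moved the median of all genes to 0.78. Sox2 had 3.09 and 2.07 CPM, against 0.757, 1.06 and 0.724 CPM (1.38 ± 0.63, adjusted p = 0.10). Nkx2-1 stood apart with 0.154 and 2.91 CPM, against 9.68, 5.77 and 2.19 CPM (-2.2 ± 1.11, adjusted p = 0.13).

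These levels were read beside the counts that the mutant libraries carry in silent genes. Over 4152 genes with a count of 0 in all 3 sorted controls, the mutants had 14.2 and 13.1 counts per kilobase of exon, as summed counts over summed length, with medians of 11.4 and 10.2 and 95th percentiles of 71.3 and 64.1 across those genes. Averaged gene by gene the rate was 20.9 and 19.1 counts per kilobase, and the place of genes near it depends on that choice. Krt5, Foxa1 and Foxa2 lay under the summed rate in both mutants, and Nkx2-1 and Sox2 joined them under the averaged rate. Krt5, itself among the silent genes that set the rate, had 2 and 14 counts where the summed rate gives 31.1 and 28.8. Trp63 had 211 and 110 counts where the rate gives 119 and 110, and Sox2 40 and 32 where it gives 29.2 and 27.0. Nkx2-1 had 2 and 45 counts where it gives 40.3 and 37.3. The genes above it in both mutants by the widest margins were Krt18 at 13.8 and 11.1 times the rate, Krt8 at 9.66 and 8.14 times, Cdh1 at 5.03 and 4.42 times and Epcam at 2.53 and 4.43 times, or 1.72 and 3.04 times the averaged rate for Epcam. Among the silent genes Epcam lay at the 81.5 and 93.6 percentile in the mutants, and Krt18 at the 99.7 and 99.3 percentile. Before the rate was subtracted, genes were kept where mean CPM over all sorted libraries was at least 2 times the background of the mutants. Levels of the controls enter that mean, and Epcam, above the rate in both mutants, fell short of this limit. Of the 10 genes Krt8, Krt18 and Cdh1 were left. Of these 3 genes 0 passed and 2 had an unadjusted p under 0.05, where 1221 of 12091 genes passed. Cdh1 had a log2 fold change of 4.14 and adjusted p = 0.073.

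**Figure D5:**
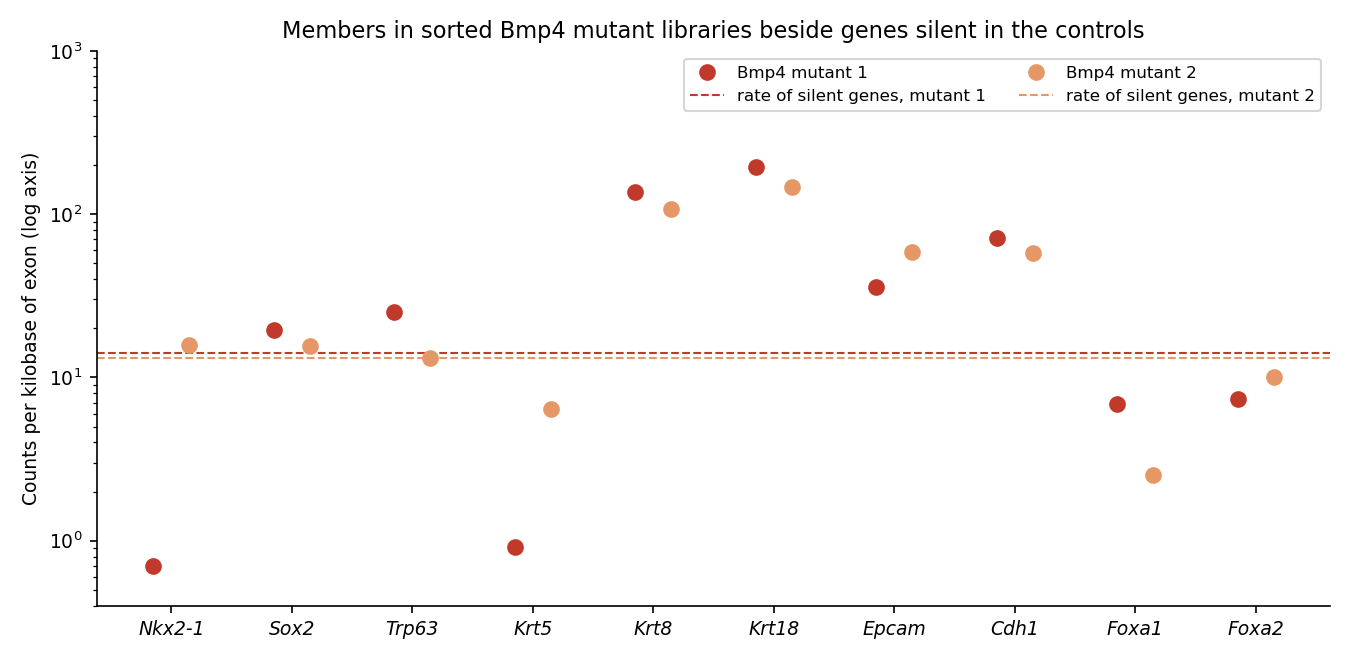
Counts per kilobase of exon (y axis, log scale) of the 10 genes in the 2 sorted Bmp4 mutant libraries, with dashed lines at the rate over 4152 genes silent in the controls (14.2 and 13.1). Krt8, Krt18, Epcam, Cdh1 and, by a smaller margin, Sox2 lie above the lines in both libraries and Krt5, Foxa1 and Foxa2 below them.

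Other epithelial lists had many higher calls in the sorted mutants. Of the junction genes 9 of 14 were called higher and 1 lower, of the regulators 8 of 12 and 0, and of the membrane proteins and proteases 7 of 10 and 0, of further keratins 3 of 8 and 0, and of basal cell genes 7 of 14 and 0, beside 39.3% and 15.6% of all genes. Such counts are partly set by the filter on low counts, which 5707 of the 21665 genes passed only through the mutants, 5441 of them called higher. Among these were all 3 called keratins (Krt4, Krt13 and Krt6a), and of the called genes 2 junction genes, 2 regulators, 1 protease and 1 basal cell gene. Lists of cells from other organs or discarded by the sort had them too. The 6 thymus and parathyroid genes, 5 of which passed the filter only through the mutants, summed to 43.7 and 27.6 CPM in the mutants, against 0.396, 0.225 and 0.463 CPM in the controls. All 7 smooth muscle genes, none of which passed that way, were called higher. Embryonic globin Hbb-y took 10.5% of all counts in mutant 1. The part of these other genes and cells in the epithelial values was not tested.

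Over the 8 libraries, the genes most like the 10 in their log2(CPM + 0.5) profile, by Pearson correlation with the mean of the centred profiles, were Stk39, Vat1, Olfr856-ps1, B4galt6, Ctage5, Rab25, Tfap4, Wnt7b, Dmrt3 and Sox21, with r from 0.995 to 0.998 among 11763 genes. The libraries share a kit within each table and the silent-gene counts in the mutants, so r is a description only. Rab25 and Wnt7b are in the epithelial lists. Dmrt3, a transcription factor gene, had 48.4 CPM in the Wls mutant trachea, against 27.0 and 22.0 CPM in the controls (1.98-fold their mean, adjusted p = 1.1e-05), and 0.0360 to 0.245 CPM in the sorted controls. Stk39, a kinase gene with the highest r, was at 0.25 in the Wls comparison (adjusted p = 0.57) and had 7.19, 7.98 and 8.07 CPM in the sorted controls, against 53.0 and 50.5 CPM in control tracheas.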

How the data were processed

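The authors deposited raw counts by gene symbol in separate tables for sorted cells and tracheas. Per the submitters' processing notes the tools were Cufflinks, Bowtie2 and DESeq, with Trim Galore for the sorted cells, on build mm10, without versions or roles. Which program counted, on which strand and annotation, is not given in the sources used here, so reads of overlapping antisense genes cannot be told apart. Per the labels' protocols, sorted cells were amplified with SMART-Seq v4 and tracheas with Ovation v2, both made into Nextera XT libraries; no test crosses the tables.

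Each table was tested in R 4.3.3 with edgeR 4.0.16 (TMM scaling, default filter by group, quasi-likelihood F test, two-sided, p adjusted by Benjamini-Hochberg over the whole tested table, threshold 0.05). Unless DESeq2 (1.42.0) or limma-voom (limma 3.58.1) is named, each adjusted p is from edgeR. The standard error (SE) comes from the fold change and F. CPM values use library totals; edgeR fold changes also carry TMM factors of 0.923 to 1.14. The rule of size used a prior count of 2 and genes of mean log2 CPM 3 or more. Exon lengths are unions from the basic GENCODE M21 set (mm10), found for 22072 of 23478 symbols. Replicate pairs differed by 20.5 to 168 times counting noise, so each library was counted once. Named genes were the 10 markers, Wls, Bmp4, Shh, the 3 of each list with the largest Wls change among genes of mean log2 CPM 3 or more, and the 10 most like the markers; genes beyond these were named after their values were seen. Some genes that the rule names are not reported here. The markers and lists were chosen with earlier results of these data known.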

Additional observations from a re-analysis of the deposited data

How the results depend on the processing

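In the Wls comparison the fold changes of the 10 genes kept their sign under all 6 alternatives. The count of all genes past the test was 682, and 256 with DESeq2, where 4 of the 10 genes passed in place of 7. Median-of-ratios scaling, no filter and limma-voom gave 537 to 702. Without one or the other control only values could be had. The rule of size called 118 genes, 514 at a log2 difference of at least 0.58 and 367 at a mean log2 CPM of at least 0, and of the 10 genes 1, 4 and 1. In the Bmp4 comparison 11888 genes passed, and 1221 after background subtraction, with 0 of the 3 among the 10 genes that were kept for it. Leaving out 1 library gave 3595 to 10478 genes and 0 to 4 of the 10. The groups share replicate numbers 1 and 2 but the labels do not say that these mark pairs. With the replicate number as a block (replicate block) 4 genes and 0 of the 10 passed (2 at an unadjusted p under 0.05), and deviations of same-numbered libraries correlated at -0.174 and -0.106. By the summed rate of silent genes 3 of the 10 genes lay at or under background in both mutants, and 5 by the average over genes, an alternative chosen after seeing the data. The median level kept in sorted controls was 1.12%, or 0.979% with size factors over all 8 libraries. With the junction list as denominator Trp63 and Krt5 were again the 2 genes below both controls. The cause of these differences was not tested.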
